A study of Brassica oleracea var. italica with 5 samples.

Results

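The broccoli transcriptome was searched for the WRKY family of transcription factors, taken as every unigene whose gene symbol in the annotation contains WRKY followed by a digit. A unigene here is an assembled transcript kept as the best match of 1 reference gene. The search gave 49 of 19441 unigenes, each matched to a different *Arabidopsis* gene, and 45 of them had at least 20 reads over the 5 libraries, against 18104 of all unigenes. Ratios were computed for these 45. A further 6 unigenes were described as WRKY proteins but had no such symbol and stayed outside the set, among them *TTG2*. Many *Arabidopsis* genes have several copies in the broccoli genome, and reads of copies that share a best match cannot be told apart.

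RNA was measured in broccoli of the cultivar Qingxiu in 5 groups, namely seeds (day 0), cotyledons of sprouts at 3, 7 and 11 days, and the first true leaves, called euphyllas, at 11 days. The seeds had been surface-sterilised with hypochlorite and kept overnight on moist filter paper, so they were imbibed, and their label calls them germinated. Sprouts grew in a peat and vermiculite mix watered with Hoagland's solution, with a long daily light period. The authors describe the hypochlorite wash and the night on filter paper for the seed sample only. In comparisons with seeds, these steps and the stage cannot be told apart. No other treatment was described. Each group was 1 library that pooled 3 biological replicates before sequencing, so differences between plants could not be measured and no test between groups was possible.

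WRKY proteins carry a DNA-binding domain of about the same form in all members, named after its WRKY amino acid signature and followed by a zinc finger, and most bind a short promoter element called the W box. *Arabidopsis* members are sorted into group I, groups IIa to IIe and group III by the number and type of these domains. Many are induced within minutes to hours by microbial patterns, wounding or salicylate through mitogen-activated protein (MAP) kinase cascades, and others act in seed dormancy, abscisic acid responses, phosphate uptake and leaf senescence. The roles given below are those known in *Arabidopsis*, and groups are those of the *Arabidopsis* match.

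The libraries held 6802615 to 10312625 mapped reads, and 1 read corresponded to a normalized value of 0.708 in seeds and 1.02 to 1.16 in the other libraries. Normalized values are read counts divided by the authors' size factor of each library. Markers followed the labels in part. The 4 seed reserve genes all fell from seeds to 3 day cotyledons, against 21.2% of all unigenes. Of the 3 green tissue genes 2 rose over this step, against 21.8% of all unigenes. Among these the light-harvesting gene *LHCB1.1* had 0 reads in seeds and a normalized value of 360.0 in 3 day cotyledons. The other riser, *PSAO*, had 15 reads in seeds and 4669 at 3 days. *CA1* was not called, and it already had 8410 reads in seeds, with 9780 at 3 days. The 3 young leaf genes were all higher in euphyllas than in 11 day cotyledons, against 20.2% of all unigenes. However, *FIL* was nearly as high in seeds (429) as in euphyllas (470), and *MCM3* was as high in 3 day cotyledons (1274) as in euphyllas (1257). *AS1* was highest in euphyllas (1188), with 734 in 3 day cotyledons. Of the 2 genes of stored oil use, both fell from 3 to 7 day cotyledons, against 14.8% of all unigenes. Seed coat (2 of 4 genes with a unigene), trichome (2 of 3) and guard cell genes (4 of 4) were represented too. No more than 2 of a list were called in 1 direction in any step between neighbouring libraries. Of all unigenes 14.8% to 25.1% were called in 1 direction in these steps, and lists of so few genes give small counts. The guard cell genes differed, *TMM* being higher and *KAT1* and *MYB60* lower in euphyllas than in 11 day cotyledons, with *FAMA* not called. The seed coat genes did not peak in seeds. *AHA10* was highest in euphyllas (300 against 179 in seeds) and *MUM4* was lowest in seeds (107). The senescence marker *SAG13* had 9, 8, 61, 103 and 29 reads in seeds, in cotyledons from the youngest to the oldest and in euphyllas, an order kept for all values below. As the samples are whole organs, a change in the number of cells of a type and a change in RNA per cell cannot be told apart.

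Summed over the 49 unigenes, WRKY transcripts were least abundant in 3 day cotyledons and most abundant in 11 day cotyledons. The summed normalized values were 3792, 2143, 5927, 10003 and 4464. Their summed reads were 0.0560%, 0.0269%, 0.0549%, 0.0905% and 0.0568% of all mapped reads. These measures scale the libraries differently, and 7 day cotyledons lay above seeds by the first but slightly below them by the second. *WRKY33* and *WRKY40* carried much of the later increase. Per kilobase of unigene, which allows levels of different genes to be compared, *WRKY33* made up 2.84% of the summed WRKY level in seeds, 1.60% in 3 day cotyledons, 29.8% and 29.5% in 7 and 11 day cotyledons and 22.2% in euphyllas. *WRKY40* made up 2.65%, 1.05%, 9.55%, 21.9% and 9.29%. Without both, the summed level per kilobase of the other 47 unigenes was 1826, 953, 1681, 2075 and 1414. By this measure it was still lowest in 3 day cotyledons and highest in 11 day cotyledons, but over a much narrower range. As a share of all mapped reads the other 47 were also lowest in 3 day cotyledons, but highest in seeds, so their peak depends on the scaling.

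The most abundant member per kilobase of unigene changed with the stage. In seeds the group IId and IIb members *WRKY15* (297 per kilobase), *WRKY17* (199) and *WRKY6* (197) led. In 3 day cotyledons the group I members *WRKY3* (128) and *WRKY32* (92.1) led at low levels, and neither of them was called different between any pair of libraries. In 7 day cotyledons *WRKY33* (825), *WRKY11* (314) and *WRKY40* (265) were the highest, and in 11 day cotyledons *WRKY33* (1258), *WRKY40* (937) and *WRKY11* (247). In euphyllas *WRKY33* (457) was followed by *WRKY11* (199), *WRKY3* (197) and *WRKY40* (192). These ranks depend on length, since the *WRKY40* unigene has 3258 bp against 1808 bp of the matched gene. Over the shorter of unigene and matched gene, a measure added after seeing the data, *WRKY40* reached 1688 per kilobase in 11 day cotyledons, above *WRKY33* with 1258, and made up 4.38%, 1.71%, 15.3%, 32.5% and 14.8% of the summed level. By that measure it ranked next to *WRKY33* and above *WRKY11* in 7 day cotyledons and euphyllas, with 477 and 345 per kilobase.

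**Figure D1:**
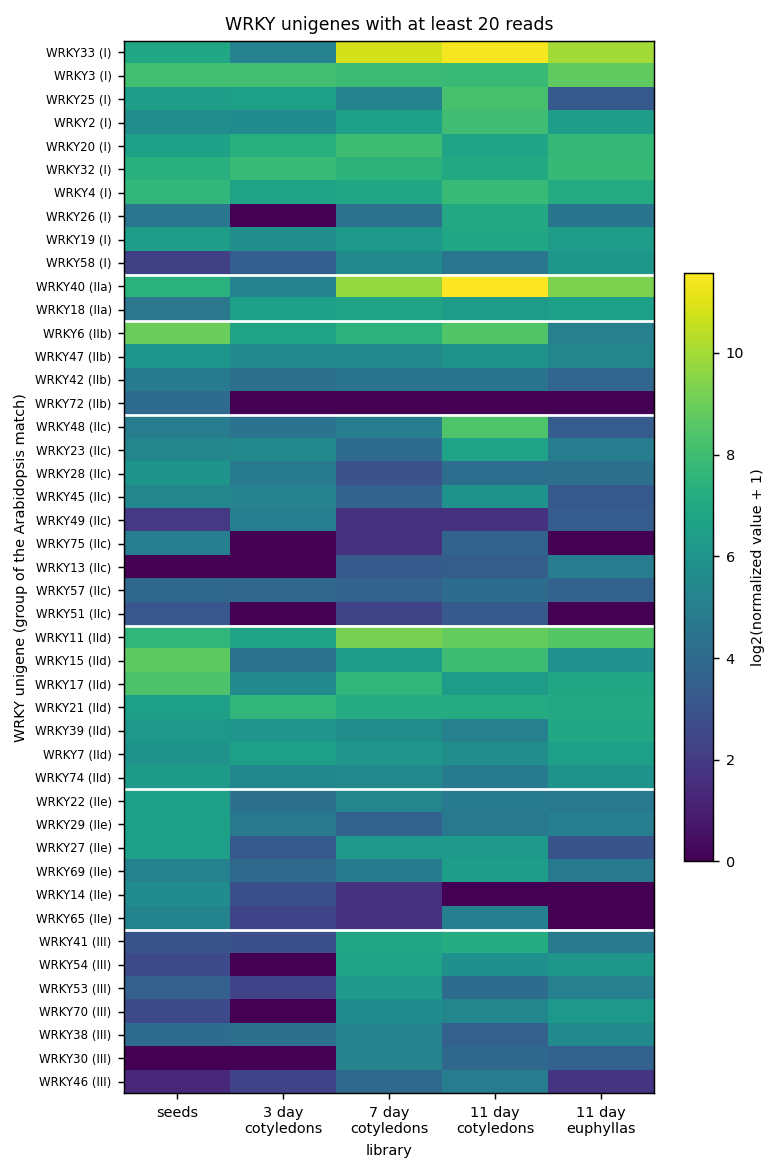
Normalized values of the 45 WRKY unigenes with at least 20 reads, on a log2(value + 1) colour scale (rows: unigenes in the groups of their *Arabidopsis* match; columns: the 5 libraries). *WRKY33* and *WRKY40* are brightest from day 7, with values of 2770.5 and 3051 in 11 day cotyledons, and most group III rows are dark in seeds and 3 day cotyledons.

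Each unigene was then compared between neighbouring libraries, that is seeds with 3 day cotyledons, 3 with 7 day, 7 with 11 day cotyledons, and 11 day cotyledons with 11 day euphyllas. A unigene was called, and is said to rise or fall, where its ratio was at least 2 and the exact 95% interval of the ratio excluded 1. Since there is 1 library a group, this interval covers counting error only. Where 1 of the libraries had 0 reads, 3 reads were put in their place and the ratio is given as a bound.

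From seeds to 3 day cotyledons more WRKY transcripts fell than rose. Of the 45 unigenes, 3 rose and 17 fell, whereas of all unigenes 21.8% rose and 21.2% fell. The median log2 ratio was -0.71 for WRKY unigenes and -0.06 for all unigenes. The risers were *WRKY18*, *WRKY21* and *WRKY49*, and the unigenes that fell included all 6 of group IIe and none of the 7 of group III. Members of group III had 0 to 22 reads in seeds and those of group IIe 47 to 135, so a fall was harder to call in group III.

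From 3 to 7 day cotyledons the balance turned. In this step 17 WRKY unigenes rose and 5 fell, against 22.7% and 14.8% of all unigenes, with a median log2 ratio of 0.65 against 0.04. Group III supplied 6 of the risers and group I 4. Of the 5 that fell, 4 were in group IIc.

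Between 7 and 11 day cotyledons 13 rose and 6 fell, against 18.5% and 17.8% of all unigenes, and the median log2 ratio was 0.18 against 0.00. Group IIc now supplied 5 of the risers and no unigene that fell. Group III held 3 of the 6 that fell.

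Euphyllas had lower levels than 11 day cotyledons for 17 WRKY unigenes and higher levels for 6, against 25.1% and 20.2% of all unigenes, with a median log2 ratio of -0.31 against -0.08. Scaling by total reads moved this split to 15 lower and 13 higher, against 17.3% and 31.0% of all unigenes, and the median to 0.00 against 0.36. Such scaling shifted the median log2 ratio of all unigenes in this comparison by 0.44, and in the other steps by -0.23, -0.40 and -0.03. With absent unigenes put at their bound, the WRKY medians of the 4 steps were -0.70, 0.52, 0.43 and -0.48.

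**Figure D2:**
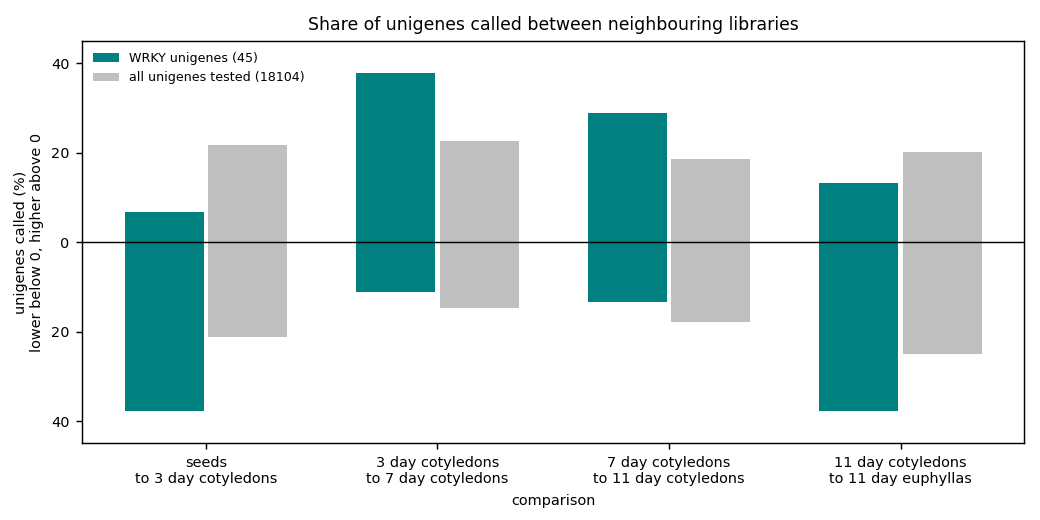
Percent of unigenes called higher (above 0) and lower (below 0) between neighbouring libraries, for the 45 WRKY unigenes (teal) and all 18104 unigenes with at least 20 reads (grey). WRKY unigenes fell in 37.8% and rose in 6.67% from seeds to 3 day cotyledons, rose in 37.8% and fell in 11.1% from 3 to 7 days, and were lower in euphyllas than in 11 day cotyledons in 37.8%.

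Longer spans, which share their libraries with the steps above, were compared as well. Between 3 and 11 day cotyledons 24 of 45 WRKY unigenes rose and 1 fell, with a median log2 ratio of 1.18, while 27.7% of all unigenes rose and 23.6% fell. Between 3 day cotyledons and euphyllas 14 were higher and 4 lower in euphyllas, against 14.5% and 9.96% of all unigenes. Seeds and 11 day cotyledons differed in both directions, with 17 higher and 9 lower in the cotyledons against 30.8% and 26.8% of all unigenes. Between seeds and 7 day cotyledons 14 rose and 12 fell, against 29.2% and 24.8% of all unigenes. Euphyllas were higher than seeds for 12 unigenes and lower for 15, against 25.8% and 23.1% of all unigenes. They were higher than 7 day cotyledons for 4 and lower for 8, against 11.1% and 16.5% of all unigenes. Over all 10 pairs of libraries 39 of the 45 were called at least once, 86.7% against 87.0% of all unigenes. The 6 that were not called in any pair were *WRKY3*, *WRKY7*, *WRKY32*, *WRKY42*, *WRKY47* and *WRKY57*.

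**Figure D3:**
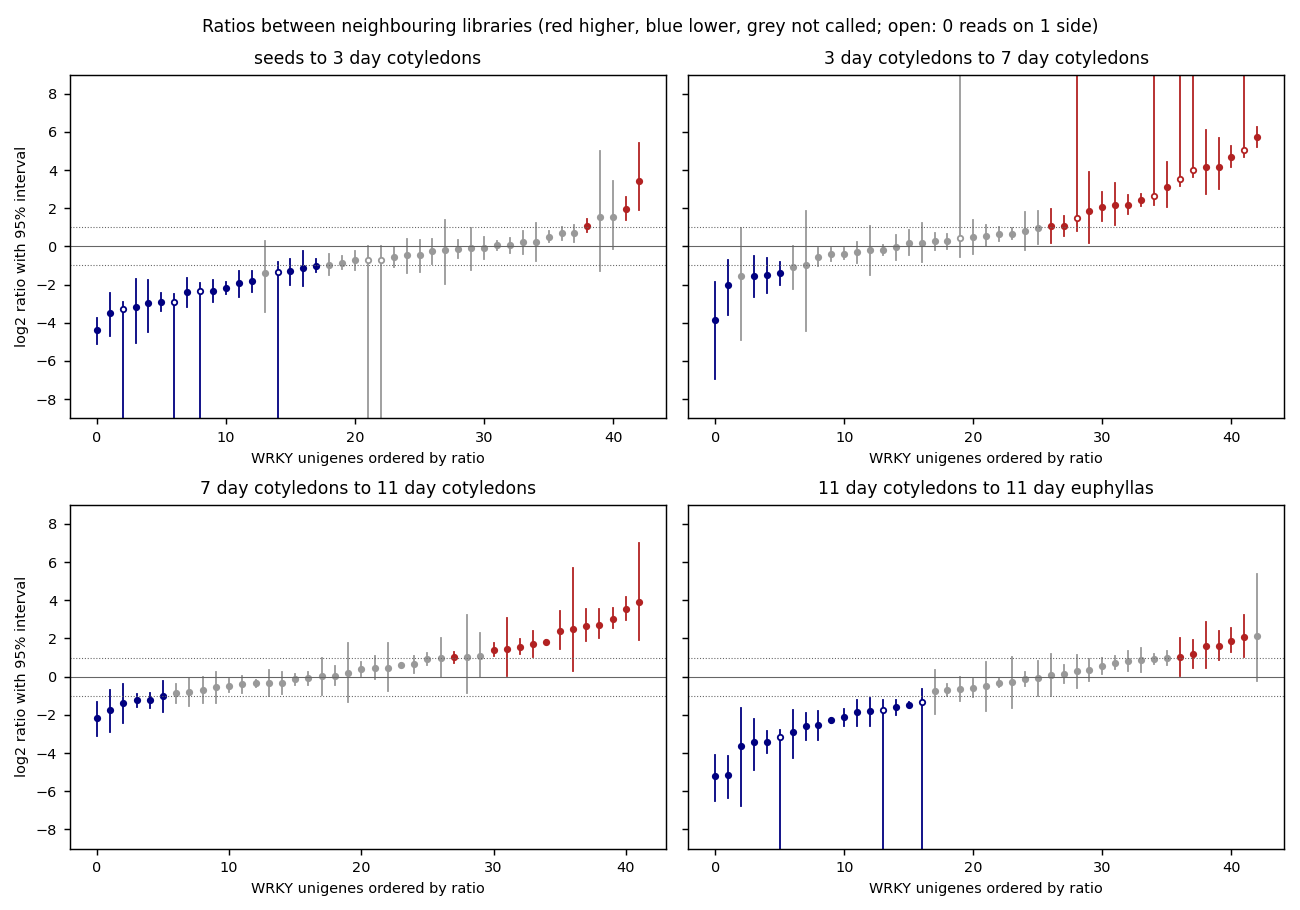
Log2 ratio of each WRKY unigene between neighbouring libraries, ordered by ratio, with 95% counting intervals (red: rose; blue: fell; grey: not called; open: 0 reads on 1 side; dotted lines: a ratio of 2 in either direction). Unigenes with no more than 3 reads in both libraries are left out, and the largest rise among ratios without a bound is that of *WRKY33* from 3 to 7 days at 52.6-fold.

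Group I proteins carry a pair of WRKY domains, and several are direct substrates of MAP kinases. *WRKY33*, required for synthesis of the antimicrobial camalexin and resistance to necrotrophic fungi, had normalized values of 121, 34.6, 1818, 2770.5 and 1006. It was low in 3 day cotyledons and high in all 3 later libraries, with no overlap in counting intervals between the early and late libraries. The fall from seeds to 3 day cotyledons was 3.50-fold (2.41 to 5.22) and the rise to 7 days was 52.6-fold (37.5 to 76.2). Its lower level in euphyllas than in 11 day cotyledons was not called with scaling by total reads.

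*WRKY25* and *WRKY26*, which act with *WRKY33* in heat tolerance, both peaked in 11 day cotyledons. *WRKY25* had values of 89.9, 93.6, 35.7, 295 and 8.09, a rise from 7 to 11 days of 8.26-fold (5.77 to 12.2) and a level in euphyllas 36.5-fold lower (17.5 to 91.5) than in 11 day cotyledons. *WRKY26* had values of 22.6, 0, 18.9, 125 and 22.0, the 0 standing for 0 reads in 3 day cotyledons. Its drop from seeds was at least 7.42-fold, and it was 6.63-fold higher (4.02 to 11.6) at 11 than at 7 days. *WRKY2*, which acts in abscisic acid responses of germination and early seedling growth, was not highest in seeds. It had values of 49.5, 46.8, 97.7, 259 and 85.5, the 11 day cotyledons being 2.66-fold higher (2.08 to 3.41) than the 7 day ones and the euphyllas 3.03-fold lower (2.33 to 3.99) than the 11 day cotyledons.

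The other group I members varied less, with the exception of *WRKY58*. *WRKY3* and *WRKY4* both contribute to resistance against necrotrophic fungi. *WRKY3* had values of 266, 277, 246, 222 and 424, the highest in euphyllas, with no step called. *WRKY4* had values of 199.5, 99.7, 119.7, 227 and 139.8, and its fall from seeds to 3 days, 2.0-fold (1.59 to 2.55), was at the limit of a call and was lost with trimmed mean of M values (TMM) scaling. *WRKY58* had values of 3.54, 10.2, 45.2, 22.5 and 69.3 and its highest level in euphyllas. It was 4.44-fold higher (2.20 to 9.91) at 7 than at 3 days and 3.08-fold higher (1.85 to 5.33) in euphyllas than in 11 day cotyledons.

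*WRKY20* was highest in 7 day cotyledons, with values of 98.4, 158, 251, 106 and 208, and was 2.37-fold lower (1.86 to 3.02) at 11 than at 7 days. *WRKY32* had values of 162, 232, 178, 129 and 213. *WRKY19*, whose *Arabidopsis* protein joins a WRKY domain to parts of a resistance protein, had values of 85.6, 51.9, 76.7, 120.1 and 79.7. Neither *WRKY32* nor *WRKY19* passed a call between neighbouring libraries.

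Both measured group IIa proteins, *WRKY40* and *WRKY18*, bind each other and restrain immune and abscisic acid responses. They did not move alike here. *WRKY40* had values of 167, 33.6, 862, 3051 and 624, with reads of 236, 33, 821, 2846 and 540, and was 90.9-fold higher (64.6 to 132) in 11 day than in 3 day cotyledons. The span of *WRKY33* between the same libraries was close to this, 80.1-fold higher (57.2 to 116), with an overlapping interval, and members with 0 reads in a library have only lower bounds. *WRKY40* fell from seeds to 3 days, being 4.98-fold lower (3.45 to 7.40), and was 25.7-fold higher (18.1 to 37.6) at 7 than at 3 days. *WRKY18* had values of 23.4, 90.5, 108, 81.5 and 91.3 and was low only in seeds, from where it rose to 3 days, 3.88-fold (2.57 to 5.97), and then stayed without a further call. Both unigenes were longer than the matched *Arabidopsis* gene, 3258 bp against 1808 bp for *WRKY40* and 2737 bp against 1828 bp for *WRKY18*, and what the extra length holds was not tested.

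**Figure D4:**
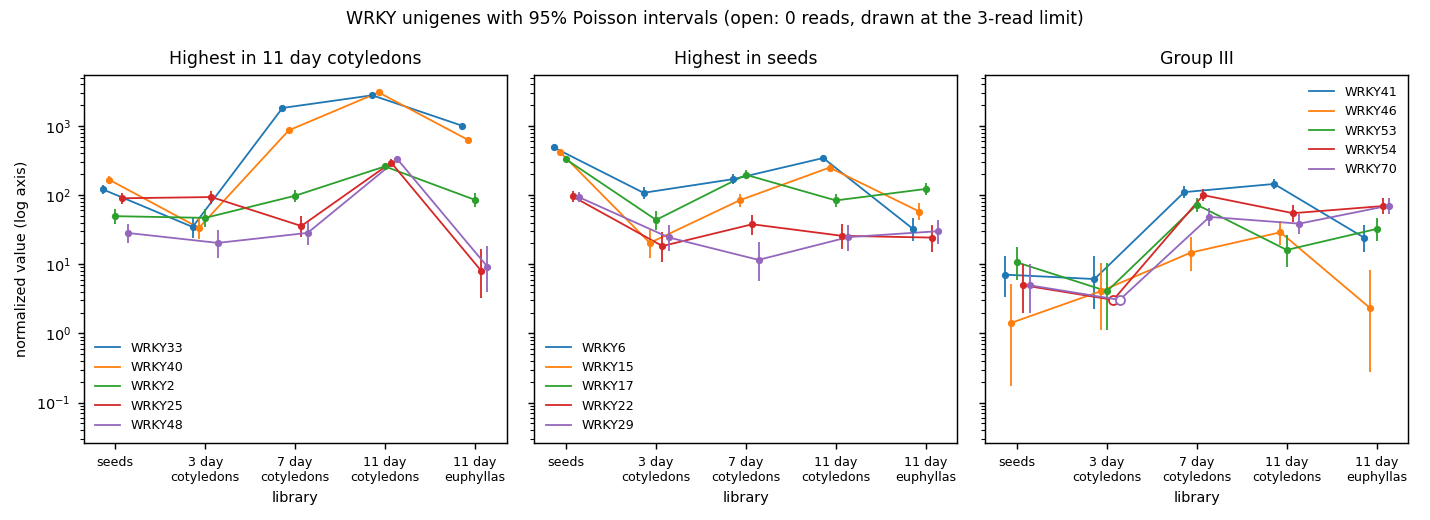
Normalized values (log axis) of members highest in 11 day cotyledons, members highest in seeds, and group III members in the 5 libraries, with 95% Poisson intervals for counting error (open points: 0 reads, drawn at the 3-read limit). *WRKY33* and *WRKY40* rise from 34.6 and 33.6 at 3 days to 2770.5 and 3051 at 11 days, and the group III members shown lie below 20 in seeds and 3 day cotyledons.

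Group IIb held 4 measured members, and 2 of them fell from seeds to 3 day cotyledons, against 21.2% of all unigenes. *WRKY6*, which takes part in senescence and represses the phosphate exporter gene *PHO1*, had values of 489, 108, 170.2, 343 and 32.4. Seeds and 11 day cotyledons were high and euphyllas low. The fall from seeds to 3 days was 4.54-fold (3.69 to 5.62), and euphyllas were 10.6-fold lower (7.20 to 16.2) than 11 day cotyledons. *WRKY72*, a member of basal immunity in *Arabidopsis*, had 22 reads in seeds and 0 in each other library, and it passed the minimum of 20 reads through seeds alone. *WRKY42*, which also acts on *PHO1*, had values of 25.5, 18.3, 21.0, 21.4 and 12.7, and *WRKY47* had values of 67.2, 45.8, 44.1, 61.1 and 39.3. No step of either was called.

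Group IIc, the members of which carry a single domain and act in widely different processes, had no common direction in the early steps. Of its 9 measured members 5 rose from 7 to 11 days, against 18.5% of all unigenes. *WRKY48*, which limits basal resistance to bacteria, had values of 28.3, 20.3, 28.4, 329 and 9.24. Only the 11 day cotyledons were high, 11.6-fold higher (7.82 to 17.9) than at 7 days, and euphyllas were 35.6-fold lower (17.8 to 83.2) than these. *WRKY23*, an auxin-responsive member of root development, had values of 38.2, 44.8, 15.8, 101 and 27.7, 6.40-fold higher (3.69 to 11.9) at 11 than at 7 days and 3.63-fold lower (2.30 to 5.95) in euphyllas than in 11 day cotyledons. *WRKY45*, which promotes phosphate uptake, had values of 39.6, 33.6, 11.6, 60.0 and 8.09, with a rise to 11 days of 5.20-fold (2.69 to 11.0) and euphyllas 7.42-fold lower (3.38 to 19.3) than 11 day cotyledons. All 3 were thus highest in 11 day cotyledons.

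*WRKY28* and *WRKY75* were highest in seeds. *WRKY28*, an activator of the salicylate synthesis gene *ICS1*, had values of 63.0, 25.4, 6.30, 17.2 and 18.5. It fell again from 3 to 7 days, 4.03-fold (1.62 to 12.0), and its rise to 11 days, 2.72-fold (1.01 to 8.49), was lost with scaling by total reads. *WRKY75*, an activator of phosphate starvation responses and senescence, had 42, 0, 2, 11 and 0 reads. Its level in 3 day cotyledons was at least 9.74-fold lower than in seeds, and at 11 days it was 5.61-fold higher (1.23 to 52.1) than at 7 days. *WRKY49* was the member with its highest level called over each other library in 3 day cotyledons. It had 4, 30, 2, 2 and 8 reads, a rise from seeds of 10.8-fold (3.80 to 42.1) and a fall to 7 days of 14.5-fold (3.69 to 125).

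Other group IIc members were scarce. *WRKY13*, which promotes lignin formation in stems, had 0, 0, 8, 9 and 25 reads and was highest in euphyllas, 2.99-fold higher (1.35 to 7.29) than in 11 day cotyledons, and at 7 days at least 2.75-fold higher than at 3 days. *WRKY51*, a repressor of jasmonate responses, had 11, 0, 4, 8 and 0 reads. Its falls to 3 days (at least 2.55-fold) and from 11 day cotyledons to euphyllas (at least 2.47-fold) rested on few reads, and the second was lost with scaling by total reads. *WRKY57*, a drought tolerance factor, had the narrowest span of the 45, with values of 14.2, 13.2, 11.6, 16.1 and 11.6.

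Group IId proteins bind calmodulin. *WRKY11* and *WRKY17* are close relatives in this group that restrain basal resistance together. *WRKY15*, linked with oxidative and salt stress, had values of 419.6, 20.3, 84.0, 249.8 and 57.8 and so was high in seeds, low at 3 days and high again in 11 day cotyledons. The fall from seeds was 20.6-fold (13.2 to 34.0), and euphyllas were 4.32-fold lower (3.17 to 5.99) than 11 day cotyledons. *WRKY17* had values of 327, 43.7, 196, 83.6 and 122, a fall from seeds of 7.47-fold (5.46 to 10.5) and a rise to 7 days of 4.49-fold (3.21 to 6.41). *WRKY11* had values of 195, 108, 582, 459 and 369.8. Unlike *WRKY15* and *WRKY17* it did not pass the call for a fall from seeds, and it was highest at 7 days, 5.40-fold higher (4.38 to 6.71) than at 3 days.

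The remaining group IId members varied less. *WRKY21* was highest in 3 day cotyledons, with values of 91.3, 193, 145, 136 and 126, and its rise from seeds, 2.12-fold (1.68 to 2.67), was lost with scaling by total reads. *WRKY39*, a heat stress factor, had values of 70.1, 64.1, 51.5, 32.2 and 119, and *WRKY74* had values of 78.5, 40.7, 46.2, 26.8 and 61.2. Both were lowest in 11 day cotyledons and higher in euphyllas, *WRKY39* being 3.70-fold higher (2.44 to 5.76) and *WRKY74* 2.28-fold higher (1.40 to 3.84). *WRKY7* had values of 59.4, 95.6, 65.1, 52.5 and 92.4, with no step called.

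Group IIe transcripts were mostly highest in seeds. All 6 measured members fell from seeds to 3 day cotyledons, against 21.2% of all unigenes. The highest value lay in seeds for 5 of them, against 29.3% of all unigenes. *WRKY22* and *WRKY29*, which act downstream of the flagellin receptor and its MAP kinase cascade, had values of 95.5, 18.3, 37.8, 25.7 and 24.3 and 93.4, 24.4, 11.6, 24.7 and 30.0 in turn. The fall from seeds was 5.22-fold (3.18 to 9.07) for *WRKY22* and 3.83-fold (2.46 to 6.18) for *WRKY29*. *WRKY22* was 2.07-fold higher (1.14 to 3.86) at 7 than at 3 days, a call lost with scaling by total reads. *WRKY27*, which affects symptoms of bacterial wilt, had values of 90.6, 8.14, 71.4, 74.0 and 6.93. It was low in 3 day cotyledons, 11.1-fold lower (5.48 to 26.3) than in seeds, and in euphyllas, 10.7-fold lower (4.66 to 30.1) than in 11 day cotyledons.

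Of the other group IIe members, *WRKY14* was mainly a seed transcript, with 68, 6, 2, 0 and 0 reads, and 3 day cotyledons were 7.88-fold lower (3.44 to 22.2). *WRKY65* had 51, 4, 2, 29 and 0 reads, so that seeds and 11 day cotyledons held most of them. It was 14.8-fold higher (3.74 to 128) at 11 than at 7 days and at least 8.97-fold lower in euphyllas than in 11 day cotyledons. *WRKY69* was highest in 11 day cotyledons instead of seeds, with values of 33.3, 15.3, 26.3, 85.8 and 24.3. It was 3.27-fold higher (2.06 to 5.34) at 11 than at 7 days, and euphyllas were 3.53-fold lower (2.16 to 6.02) than 11 day cotyledons.

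Group III, which in *Arabidopsis* holds many salicylate-responsive members and regulators of senescence, showed a single shared step. It had no member called between seeds and 3 day cotyledons, where its reads were few. Of its 7 measured members 6 rose from 3 to 7 days, against 22.7% of all unigenes. *WRKY54* and *WRKY70*, close relatives that limit salicylate build-up and delay senescence, had 7, 0, 95, 51 and 60 reads and 7, 0, 46, 36 and 61 reads in turn. At 7 days *WRKY54* was at least 32.7-fold higher and *WRKY70* at least 15.8-fold higher than at 3 days, and neither was called between the later libraries. *WRKY53*, which promotes senescence, had values of 10.6, 4.07, 72.5, 16.1 and 32.4. It was highest at 7 days, 17.8-fold higher (6.65 to 67.2) than at 3 days, and then 4.51-fold lower (2.55 to 8.48) at 11 days.

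*WRKY41*, a positive regulator of the dormancy gene *ABI3*, was low in seeds and had values of 7.08, 6.10, 110.3, 145 and 24.3. Its rise to 7 days was 18.1-fold (8.03 to 50.4), and euphyllas were 5.96-fold lower (3.75 to 9.95) than 11 day cotyledons. *WRKY46*, a factor of drought and stomatal responses, had 2, 4, 14, 27 and 2 reads. Its rise to 7 days, 3.61-fold (1.14 to 15.1), was lost with scaling by total reads, and euphyllas were 12.5-fold lower (3.15 to 109) than 11 day cotyledons. *WRKY30*, a stress-induced member, had 0, 0, 34, 13 and 10 reads. At 7 days it was at least 11.7-fold higher than at 3 days, and at 11 days 2.56-fold lower (1.32 to 5.29). *WRKY38*, which restrains salicylate-dependent defence, had values of 15.6, 18.3, 35.7, 10.7 and 45.1. It was the group III member without a called rise to 7 days, was 3.33-fold lower (1.61 to 7.56) at 11 than at 7 days, and was 4.20-fold higher (2.06 to 9.44) in euphyllas than in 11 day cotyledons.

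Sorted by the library of the highest value, 15 of the 45 unigenes peaked in 11 day cotyledons, 14 in seeds, 6 each in 7 day cotyledons and euphyllas and 4 in 3 day cotyledons. Of all unigenes 26.6%, 29.3%, 16.0%, 13.2% and 15.0% did so. Scaling by total reads turned the order of the leading libraries, with 19 members highest in seeds and 10 in 11 day cotyledons, against 39.9% and 18.1% of all unigenes. The highest value was called over each other library for *WRKY2*, *WRKY23*, *WRKY25*, *WRKY26*, *WRKY40*, *WRKY48* and *WRKY69* in 11 day cotyledons, and for *WRKY14*, *WRKY22*, *WRKY28*, *WRKY29*, *WRKY72* and *WRKY75* in seeds. The same held for *WRKY30* and *WRKY53* in 7 day cotyledons, *WRKY49* in 3 day cotyledons and *WRKY13* in euphyllas. The share of all unigenes with such a called peak was not counted, so these names are a description only. The lowest value lay in 3 day cotyledons alone for 15 of the 45, against 17.2% of all unigenes, and 8 of the 45 had 0 reads there. Without the minimum of 20 reads, 38 of the 49 members had a read in 3 day cotyledons, against 18012 of all 19441 unigenes.

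Of the 45, 6 would have had under 20 reads without their most-read library (*WRKY13*, *WRKY14*, *WRKY49*, *WRKY51*, *WRKY72* and *WRKY75*). The filter thus favours a peak in that library, and these peaks are a description. For *WRKY51* that library was seeds, with 11 reads, while its highest normalized value was in 11 day cotyledons. Without them, in a count made after seeing the data, 2 of the remaining 39 rose and 13 fell from seeds to 3 days, 16 rose and 4 fell to 7 days, 12 rose and 6 fell to 11 days, and 5 were higher and 15 lower in euphyllas.

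Members with few reads were at the edge of detection. *WRKY9*, *WRKY62*, *WRKY31* and *WRKY50* had 3, 6, 10 and 17 reads over the 5 libraries and no ratio was computed for them. Just above the limit of 20 reads lay *WRKY72* with 22, *WRKY51* with 23, *WRKY13* with 42 and *WRKY49* with 46 reads. By the limit of 3 reads, a count of 0 reads allows a normalized value of up to 2.12 in seeds and 3.05 to 3.47 in the other libraries, so these members may be present below this limit.

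The receptors and kinases upstream of WRKY proteins were taken from a list of 12 genes, all of which had a unigene. From seeds to 3 day cotyledons 10 of them fell and none rose, from 3 to 7 days 7 rose and none fell, from 7 to 11 days 7 rose and none fell, and 9 were lower and none higher in euphyllas than in 11 day cotyledons. Of all unigenes 21.8% rose and 21.2% fell to 3 days, and 22.7% rose and 14.8% fell to 7 days. To 11 days 18.5% rose and 17.8% fell, and in euphyllas 20.2% were higher and 25.1% lower. With 12 genes these counts are small. *MPK3*, the MAP kinase that phosphorylates WRKY33, had 976, 219, 2301, 9070 and 2135 reads. It was 10.9-fold higher (9.44 to 12.5) at 7 than at 3 days. The flagellin receptor gene *FLS2* had 1480, 93, 97, 509 and 34 reads, so that unlike *MPK3* it was highest in seeds. It was 11.1-fold lower (8.97 to 13.8) at 3 days than in seeds, 5.36-fold higher (4.30 to 6.73) at 11 than at 7 days and 13.9-fold lower (9.81 to 20.3) in euphyllas than in 11 day cotyledons. The largest rise of the list from 3 to 7 days was that of *MKK9*, a MAP kinase kinase, which was 12.2-fold higher (8.05 to 19.4). *MKK1* had the second largest fall from seeds, 6.17-fold (2.97 to 14.9), *MEKK1* the second largest rise to 11 days, 4.34-fold (3.89 to 4.86), and *MPK4* was 6.92-fold lower (4.42 to 11.3) in euphyllas.

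Proteins that bind WRKY proteins were represented by 7 genes, of which 2 fell to 3 days, 4 rose to 7 days, 1 rose and 1 fell to 11 days, and 3 were lower and 1 higher in euphyllas. With 7 genes these counts are small, and of all unigenes 21.2% fell to 3 days, 22.7% rose to 7 days, 18.5% rose and 17.8% fell to 11 days, and 25.1% were lower and 20.2% higher in euphyllas. *MKS1*, which links WRKY33 to the kinase MPK4, had 114, 5, 57, 490 and 57 reads and, like *WRKY33*, was lowest at 3 days and highest at 11 days. It was 15.9-fold lower (6.60 to 49.8) at 3 days than in seeds, 11.8-fold higher (4.76 to 37.6) at 7 than at 3 days, 8.77-fold higher (6.66 to 11.8) at 11 than at 7 days and 7.98-fold lower (6.05 to 10.7) in euphyllas. *SIB1*, an activator of WRKY33, had 1, 4, 128, 52 and 18 reads and was 33.0-fold higher (12.6 to 123) at 7 than at 3 days, then 2.41-fold lower (1.73 to 3.40) at 11 days. *JAV1*, a jasmonate response repressor, was 24.3-fold lower (6.49 to 205) at 3 days than in seeds and 6.96-fold lower (1.62 to 62.7) in euphyllas than in 11 day cotyledons, with 15 and 2 reads in the latter pair. The histone deacetylase gene *HDA19* was the one gene of the list higher in euphyllas.

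Of 16 listed target genes of WRKY proteins 11 had a unigene. From seeds to 3 days 1 rose and 4 fell, from 3 to 7 days 5 rose and 2 fell, from 7 to 11 days 1 rose and 2 fell, and in euphyllas 1 was lower and none higher than in 11 day cotyledons. For all unigenes the shares were 21.8% and 21.2%, 22.7% and 14.8%, and 18.5% and 17.8% in the first 3 steps. In euphyllas 25.1% of all unigenes were lower and 20.2% higher. The ethylene synthesis genes *ACS2* and *ACS6*, targets of WRKY33, had 28 and 34 reads at 3 days and 1383 and 1216 reads at 7 days. At 7 days *ACS2* was 51.0-fold higher (35.1 to 77.1) and *ACS6* 36.9-fold higher (26.3 to 53.6). The abscisic acid response genes *ABI3*, a target of WRKY41, and *ABI4*, a target of WRKY40, were highest in seeds, *ABI3* being at least 106-fold lower and *ABI4* 45.2-fold lower (24.4 to 94.6) at 3 days. The defence gene *PR1* had 32 reads at 7 days and 2 at 11 days, 15.7-fold lower (4.0 to 135), while *RAV1* was 2.53-fold lower (2.20 to 2.92) over the same step. *PHO1*, which WRKY6 represses, had values of 9.20, 6.10, 121, 81.5 and 11.6. It was 7.05-fold lower (3.63 to 15.3) in euphyllas than in 11 day cotyledons, and *WRKY6* was lower there too. In seeds, where *WRKY6* was highest, *PHO1* was low. Whether WRKY6 acts on *PHO1* here was not tested.

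Genes of the early response to wounding and touch moved with the WRKY sum, which is given here as a measured fact. Of the 10 such genes with a unigene 8 fell to 3 days, 10 rose to 7 days, 5 rose and 1 fell to 11 days, and 7 were lower and 1 higher in euphyllas than in 11 day cotyledons. Of all unigenes 21.2% fell to 3 days, 22.7% rose to 7 days, 18.5% rose and 17.8% fell to 11 days, and 25.1% were lower and 20.2% higher in euphyllas. The summed normalized values of the list were 3398, 523, 9797, 29664 and 6454. The jasmonate repressor gene *JAZ1* was 33.4-fold lower (20.7 to 57.6) at 3 days than in seeds and 118-fold higher (73.2 to 202) at 7 than at 3 days, and *ZAT10* was 14.5-fold lower (9.05 to 24.7) at 3 days. *ERF6* was 96.6-fold higher (56.3 to 182) at 7 than at 3 days. *TAT3*, a wound-induced aminotransferase gene, was 29.0-fold higher (23.3 to 36.6) and *JAZ2* 23.0-fold higher (17.9 to 30.2) at 11 than at 7 days, and both were lower in euphyllas, 19.5-fold lower (16.1 to 23.8) and 68.3-fold lower (43.6 to 114). Vascular markers also summed highest in 11 day cotyledons, with values of 811, 1395, 2425, 4441 and 428, but this sum was carried by the phloem gene *SUC2* and the 3 listed genes differed. *SUC2* had values of 594, 1095, 1945, 4121 and 117. The phloem regulator *APL* had values of 46.0, 109.8, 245, 249.8 and 72.8, with no call from 7 to 11 days. The xylem gene *IRX3* was lowest in 11 day cotyledons, with values of 171, 190.2, 235, 69.7 and 238. Whether wounding or touch, or the share of vascular tissue, had a part in the WRKY values was not tested.

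**Figure D5:**
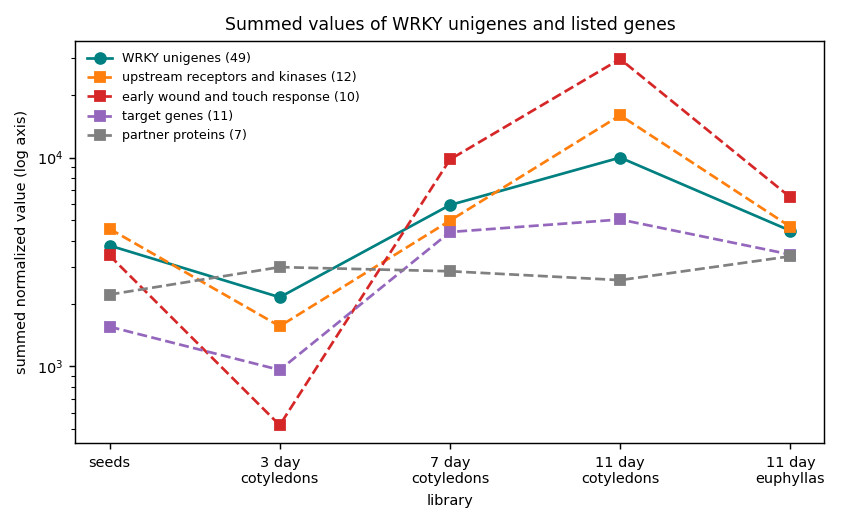
Summed normalized values (log axis) of the 49 WRKY unigenes and of the listed kinases, partner, target and early wound and touch response genes in the 5 libraries. The WRKY sum goes from 2143 in 3 day cotyledons to 10003 in 11 day cotyledons, and the wound and touch sum from 523 to 29664.

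The NAC and ERF families, chosen by symbol in the same way, gave counts in the same directions. From seeds to 3 day cotyledons 8 of 53 NAC unigenes rose and 23 fell, and 5 of 43 ERF unigenes rose and 19 fell, against 21.8% and 21.2% of all unigenes. From 3 to 7 days 22 NAC unigenes rose and 5 fell, and 23 ERF unigenes rose and 5 fell, against 22.7% and 14.8% of all unigenes. From 7 to 11 days 17 NAC unigenes rose and 6 fell, and 14 ERF unigenes rose and 8 fell, against 18.5% and 17.8%. In euphyllas 2 NAC unigenes were higher and 28 lower than in 11 day cotyledons, and 7 ERF unigenes were higher and 17 lower, against 20.2% and 25.1%. No pattern above is therefore given as particular to the WRKY family, and differences between the families were not tested.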

How the data were processed

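RNA from 5 pooled libraries (seeds, 3, 7 and 11 day cotyledons, 11 day euphyllas), each 1 pool of 3 biological replicates, was sequenced as paired reads on an Illumina MiSeq. The authors trimmed reads at a quality score of 20, assembled all libraries together with Velvet and Oases (k-mer 69), searched the transcripts by BLAST in *Arabidopsis* and, failing a hit, in nr, and mapped reads back with Bowtie. For Bowtie and DESeq the version was not given in the sources used here. Each of the 10 tables deposited by the authors compares a pair of libraries, and its counts are raw mapped reads per unigene. The normalized signal columns are the deposited counts divided by the authors' DESeq size factor of each library. The 20 RPKM columns and the authors' own fold change, log2 ratio, p-value and FDR columns, which hold their comparisons, were not used. Counts of a library were identical in all tables, with 0 differing cells. They exceeded the trimmed read pairs of the library in every case, so that either mates of a pair or multiply placed reads must have been counted apart, and counting intervals are too narrow.

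Ratios of normalized values were computed with Python 3.11.15 and SciPy 1.17.1, with exact Clopper-Pearson intervals of the conditional binomial distribution at 95%, and figures with matplotlib 3.10.9. Unigenes needed 20 reads over the 5 libraries. A call needed a ratio of 2 and an interval excluding 1, and the calling step was tested on simulated data. Medians use log2(value + 1). With 1 library a group, no model across unigenes and no p-value was computed.

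Every WRKY unigene with 20 reads is named with its values or reads, with at most 2 called ratios between neighbouring libraries. For listed upstream, partner, target and early wound and touch genes the 2 largest called ratios per step are given, and for other markers counts of calls or values. The members, the lists and the rule were chosen with earlier results of these data known. Of the 49 unigenes, 18 are longer than the matched *Arabidopsis* gene. Lengths span 208 to 5667 bp with a median of 1791 bp. No sequence was used here. Alternatives were scaling by total reads or by TMM factors (edgeR 4.0.16 in R 4.3.3), other read minimums, a stricter interval level, an assumed biological coefficient of variation of 0.2 and a pseudocount of 10.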

Additional observations from a re-analysis of the deposited data

How the results depend on the processing

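Of 127 values of 18 summary results recomputed under the alternatives, 114 stayed within 1.5 times the main count or, for a median, kept its sign within 0.58 on the log2 scale, and 13 did not. A stricter interval level lowered the number of WRKY unigenes falling from 3 to 7 day cotyledons from 5 to 3. Scaling by total reads raised the number higher in euphyllas than in 11 day cotyledons from 6 to 13 and moved the WRKY median of that comparison from -0.31 to 0.00, while that of all unigenes became 0.36. It left the other WRKY medians at -0.95, 0.22 and 0.15. Leaving out the 6 members with under 20 reads outside their most-read library, also chosen after seeing the data, kept all 18 results within these limits. Leaving out the 18 unigenes longer than the matched gene, an alternative chosen after seeing the data, left 27 unigenes. It gave 1 rising and 11 falling from seeds to 3 day cotyledons and 10 rising and 2 falling from 3 to 7 days. From 7 to 11 days 7 rose and 6 fell, and in euphyllas 4 were higher and 9 lower. The 27 also included 9 highest in seeds, 1 highest in 3 day and 9 highest in 11 day cotyledons, and 23 called in at least 1 of the 10 pairs. Most of these counts fall with the number of unigenes tested. The 6 falling from 7 to 11 days did not, against 13 rising and 6 falling among all 45, so risers hardly exceeded fallers there.

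Of the 84 called ratios of single unigenes between neighbouring libraries, 76 were still called with total reads, 8 were not and 0 reversed. The 8 were *WRKY21* from seeds to 3 days, *WRKY2*, *WRKY22* and *WRKY46* from 3 to 7 days, *WRKY6* and *WRKY28* from 7 to 11 days, and *WRKY33* and *WRKY51* from 11 day cotyledons to euphyllas. With TMM factors 83 were still called, 1 was not (*WRKY4* from seeds to 3 days) and 0 reversed. No paired analysis was possible because each group is 1 pooled library. For the same reason no replicate could be left out, and spread between plants is unknown. Counting intervals are too narrow, since mates of a pair were counted apart or reads more than once. Reads of gene copies that share 1 unigene cannot be separated, and members with few reads have wide intervals.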
